A study of Homo sapiens with 16 samples.

Results

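A set of 10 genes of the Notch pathway was followed across the 16 libraries of HCC70, a triple-negative, basal-like line grown from a human breast tumour and long established in culture. They are RBPJ, HES1, HES4, NRARP, NOTCH3, JAG2, MAML2, NUMB, SNW1 and APH1A, taken by name from the table of 11282 genes. All 10 were found and all 10 passed the filter on low values, a normalized signal of at least 5 in at least 2 libraries. The libraries form 8 groups of 2 by the construct that the cells were infected with. Constructs named for KLF5, RBPJ, NFIB and FOXA1 carry short hairpin RNAs (shRNAs), which lower the messenger RNA of the gene they are aimed at. The 4 control groups, with 8 libraries, are plko, named for a lentiviral vector backbone, and shRFP, shLACZ and shLUC, named for genes that human cells lack. Every library has its own construct number in the labels, in the control groups too, so the spread within a group includes differences between constructs. The labels do not say whether the libraries of a group came from separate cultures, so the p-values cover the spread between these samples, which may be technical. The libraries were barcoded in batches of 12 and some samples were run again, per the labels, which do not say which, so a batch and a construct cannot be told apart. Each library is a bulk sample, in which fewer cells of a kind and less RNA per cell cannot be told apart.

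Notch signalling passes between touching cells. A ligand such as JAG2 on one cell binds a receptor such as NOTCH3 on the next, the gamma-secretase complex, which needs APH1A, frees the receptor's inner part, and this part enters the nucleus and joins RBPJ, a DNA-binding protein, with a Mastermind coactivator such as MAML2. RBPJ without the receptor recruits corepressors, so loss of RBPJ can lower or raise a target gene. In mammary epithelium the pathway is known for its part in luminal cell fate, and NUMB, an inhibitor of the receptor that is shared unequally between daughter cells, links it to asymmetric division.

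HES1 and HES4, transcriptional repressors of the hairy family, are textbook kinds of RBPJ target, and the bases before their start sites are shown because they hold the core of the RBPJ binding motif. The sequences are RefSeq promoters of build GRCh38, which is not the build of the deposited table, and they run to the last base before the annotated start. HES1 is shown at chr3:194135898-194136147 on the plus strand and HES4 at chr1:1000098-1000347 on the minus strand. Capitals mark the letters TGGGAA, searched on both strands.
HES1: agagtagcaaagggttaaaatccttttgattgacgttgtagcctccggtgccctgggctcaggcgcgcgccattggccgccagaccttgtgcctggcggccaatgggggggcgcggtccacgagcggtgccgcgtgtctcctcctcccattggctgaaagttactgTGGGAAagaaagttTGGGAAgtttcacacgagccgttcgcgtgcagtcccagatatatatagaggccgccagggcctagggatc
HES4: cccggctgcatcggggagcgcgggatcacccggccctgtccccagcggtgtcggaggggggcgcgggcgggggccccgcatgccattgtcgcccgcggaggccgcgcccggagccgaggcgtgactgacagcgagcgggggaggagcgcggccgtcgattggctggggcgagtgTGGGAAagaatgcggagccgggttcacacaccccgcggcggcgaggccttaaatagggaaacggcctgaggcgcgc
The HES1 window holds TGGGAA at 84 to 79 and again at 70 to 65 bases before the start, and the HES4 window holds it at 76 to 71. Of 35116 promoter windows of 250 bases, 20.8% hold TGGGAA at least once and 2.9% at least 2 times. The longer GTGGGAA, which contains it and occurs once in each of the HES1 and HES4 windows, is held by 5.4%. The 10 genes matched 14 windows, since RBPJ has 5, and besides HES1 and HES4 the letters occur in 1 of the RBPJ windows. The windows of NRARP and the other 6 genes do not hold these letters. A match describes the window and shows no binding.

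Library totals ran from 375713 reads (plko 1) to 3090666 (RBPJ 1), with a median of 1164801.5, and RBPJ 1, NFIB 2 (1958659) and RBPJ 2 (1762664) were the deepest. The basal keratins KRT5 and KRT17 were abundant, with control means of 3015 and 810, while ESR1, the estrogen receptor, averaged 5.06 and PGR, the progesterone receptor, 1.39. TP63, a basal master factor, averaged 2.15. The plko and KLF5 groups differed from the others in KRT8, a simple-epithelial keratin, by a log2 of -3.54 for plko against the other controls (limma adjusted p = 5.77e-07) and of -3.06 for KLF5 against all controls (adjusted p = 0.0253). Results of the KLF5 comparison are therefore given with and without plko. The transcript that each of the other hairpin groups was aimed at had a log2 difference from the controls of -0.94 for KLF5 (adjusted p = 0.0122), -1.89 for NFIB (adjusted p = 0.2) and -1.41 for FOXA1 (adjusted p = 0.257). Their unadjusted limma p-values were alike, at 0.000224, 7.39e-05 and 0.000202. The adjustment runs over all genes, of which 5.37% passed with KLF5 and 0.00924% with each of NFIB and FOXA1. The adjusted values therefore do not rank the 3 falls.

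The RBPJ transcript was strongly reduced in 1 of the 2 libraries labelled RBPJ. In the controls RBPJ (ENSG00000168214) had a lowest value of 43.1 (shRFP 2), a median of 49.0 and a highest of 68.4 (plko 1), with a mean of 51.3 ± 7.77 (SD, n = 8). It was at 43.3 in RBPJ 1, from 174 reads, and at 8.53 in RBPJ 2, from 18 reads, which is 84.3% and 16.6% of the control mean. RBPJ 1 lay inside the control range and RBPJ 2 below every other library. The exact 95% Poisson interval, which covers counting error only, was 37.1 to 50.2 for RBPJ 1 and 5.06 to 13.5 for RBPJ 2. In the other hairpin groups RBPJ had values of 41.9 and 40.8 (KLF5), 49.9 and 42.2 (NFIB) and 51.4 and 49.6 (FOXA1). By group mean the order ran from plko (60.2) through shLACZ, FOXA1, shLUC, NFIB, shRFP and KLF5 (41.4) to RBPJ (25.9), and each pair of neighbours overlapped except shRFP and KLF5.

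Tested with each RBPJ library on its own, the RBPJ transcript was lower in RBPJ 2, with a log2(value + 1) difference of -2.44 (limma SE 0.29, adjusted p = 0.000191), a scale that understates changes of low values. In RBPJ 1 the log2 difference was -0.23 (95% interval -0.83 to 0.37, adjusted p = 0.999). RBPJ 2 was lower than RBPJ 1 by a log2 difference of -2.21 (SE 0.39, adjusted p = 0.0331), the 1 member of 10 to pass there, where 0.0369% of all genes passed. That call was lost in 6 of 14 fits that left out 1 library, without shRFP 1, shLACZ 2, KLF5 1, KLF5 2, FOXA1 1 or FOXA1 2, at adjusted p of 0.0542 to 0.0621, and with a block for the library number (-2.06, adjusted p 0.173). Each RBPJ library is a lone sample in these fits, which take its spread from the other groups. With both RBPJ libraries as 1 group the log2 difference was -1.34 (SE 0.34, adjusted p = 0.266), and 2 of 45 arrangements of 2 libraries against 8 were as low (exact permutation test, 2-sided p = 0.0889, smallest possible 0.0444). The gene names list 4 numbered RBPJ pseudogenes, none of which is in the deposited table, so the share of reads that such copies take is uncertain.

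**Figure D1:**
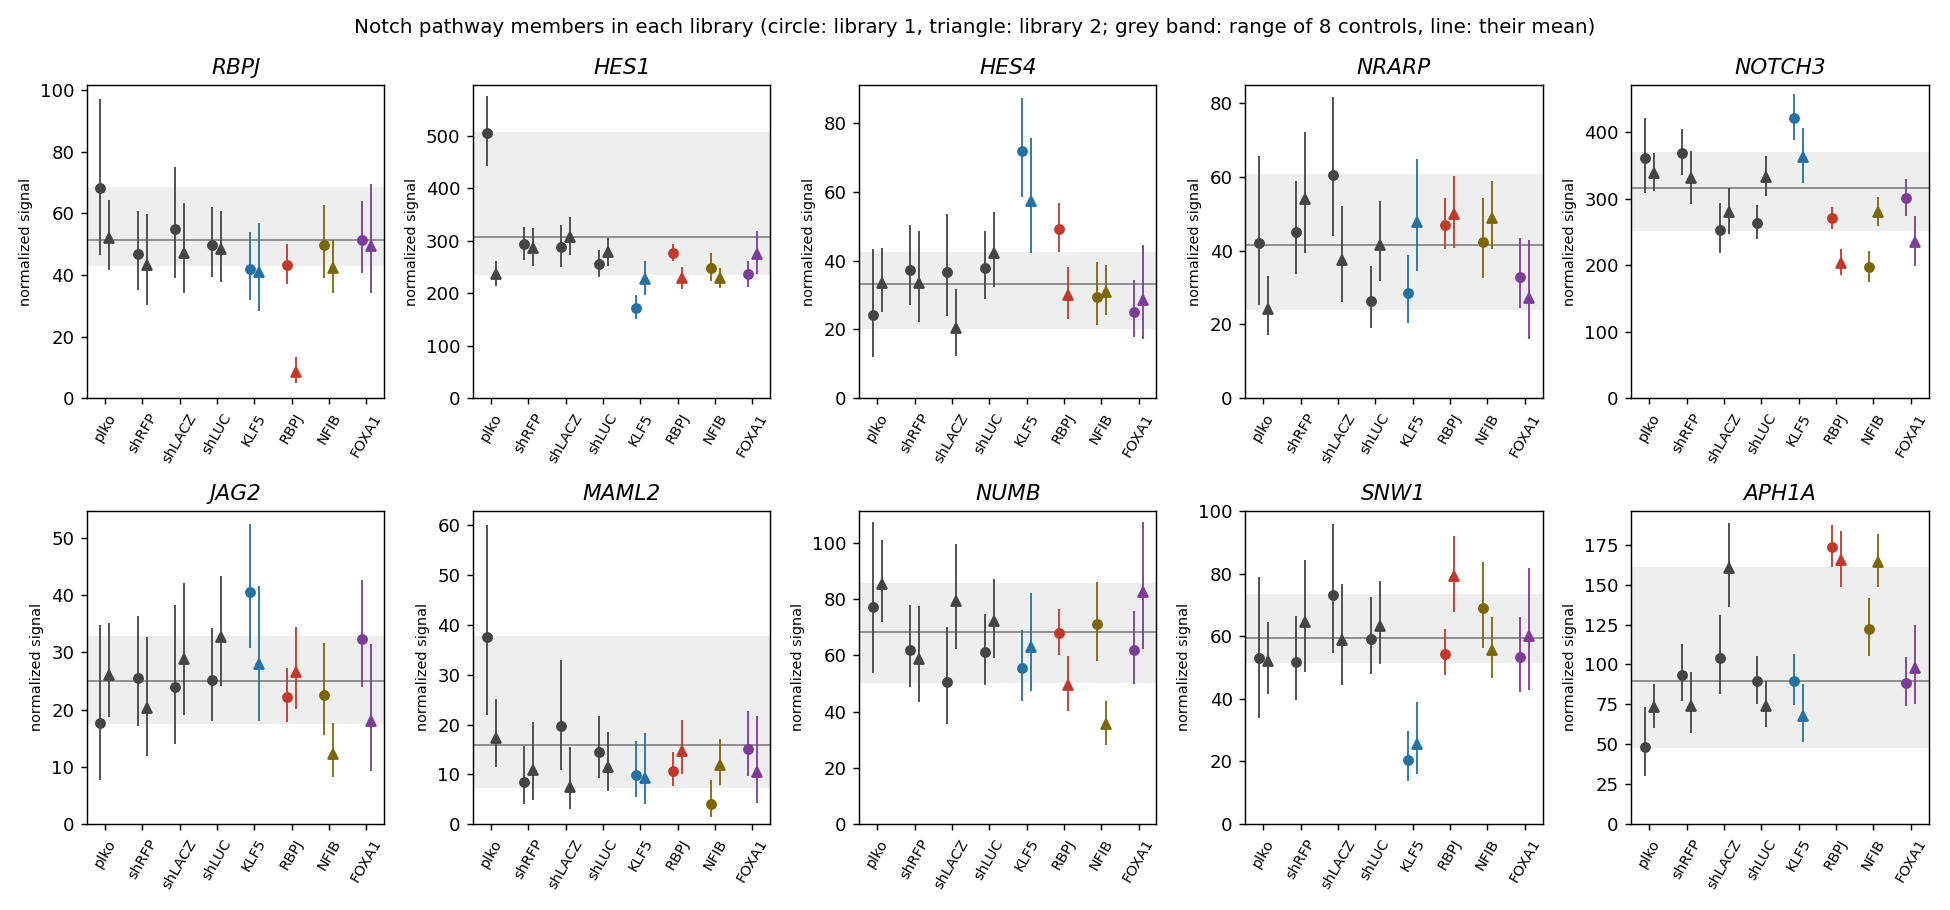
Normalized signal (vertical axes, linear from 0) of the 10 genes in each library by construct, with circles for library 1, triangles for library 2, bars for exact 95% Poisson counting intervals, a grey band for the range of the 8 controls and a line for their mean. RBPJ is low in RBPJ 2 (8.53) and not in RBPJ 1 (43.3), SNW1 is low in both KLF5 libraries (20.6 and 25.7), and HES4 is high in both (71.8 and 57.2).

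None of the 10 genes passed over all genes in the comparison of the RBPJ group with the controls (limma), where 0.0277% of the 10826 tested genes passed. At an unadjusted p under 0.05 there were 3, RBPJ, APH1A and NOTCH3, where 593 of the 10826 tested genes were. The count tests edgeR and DESeq2 on recovered reads called 0 of the 10 as well. The median log2 difference of the 10 genes was -0.09, against 0.05 over all genes. In RBPJ 1 alone 0 of the 10 passed, with 1 (APH1A) at an unadjusted p under 0.05 and 0 by edgeR or DESeq2, and 0% of all genes passed. In RBPJ 2 alone 1 of the 10 passed, the RBPJ transcript itself, on the lower side, where 1.32% of all genes passed (1.16% lower and 0.157% higher). The leukocyte markers in the table, PTPRC and CD68 (2 of 5 listed), summed to 51.2 in RBPJ 2, 18.6 in RBPJ 1 and 8.82 to 34.3 in the controls. CD68 was at 48.8 in RBPJ 2, the highest of the 16 libraries (controls 8.82 to 31.1), and PTPRC at 2.37 (controls 0 to 3.21). The other 3 listed had no row. The epithelial marker sums were also above the controls in RBPJ 2, though not in that library alone. The basal list (8 of 8 in the table) summed to 8609 in RBPJ 2, 3823 in RBPJ 1 and 3422 to 6823 in the controls. The luminal list (6 of 6) summed to 2248, 1244 and 949 to 1855. Basal sums above the controls were also found in FOXA1 1 (8537) and NFIB 1 (8098), and NFIB 1 had a luminal sum of 1878. The keratins KRT8 (395), KRT18 (114), KRT19 (1599) and KRT17 (2440) were each at their highest of the 16 libraries in RBPJ 2. CDH1 (861) and EPCAM (386) were highest there too. KRT14 (25.6), EGFR (108), ESR1 (3.79) and GATA3 (132) were inside the control range there and below the control mean. In RBPJ 1 KRT8 (110), KRT18 (31.6), KRT19 (921) and KRT17 (453) lay inside the range of the 8 controls. Each was below every shRFP, shLACZ and shLUC library, whose lowest values were 177, 42.2, 984 and 579. The part of these markers in the RBPJ 2 results was not tested.

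Of the target genes, HES1 (ENSG00000114315) had a lowest control value of 237 (plko 2), a median of 287 and a highest of 505 (plko 1). It was at 277 in RBPJ 1 and 229 in RBPJ 2. RBPJ 1 lay inside the control range and RBPJ 2 just below it. Both ends of that range are plko libraries. The 6 shRFP, shLACZ and shLUC libraries ran from 256 to 307 (mean 285 ± 17.3, n = 6). RBPJ 1 lay inside these limits, and RBPJ 2 lay below them, as did plko 2 and NFIB 1 (249). The log2 difference was -0.11 in RBPJ 1 and -0.38 in RBPJ 2 (95% interval -0.99 to 0.22, limma adjusted p = 0.716). HES1 was also below the lowest control in NFIB 2 (229), in FOXA1 1 (236) and in both KLF5 libraries (173 and 228).

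HES4 (ENSG00000188290) ran from 20.3 (shLACZ 2) through a median of 35.1 to 42.2 (shLUC 2) in the controls. It was at 49.2 in RBPJ 1, above every control, and at 29.9 in RBPJ 2, inside the control range. The log2 differences were 0.59 (95% interval -0.14 to 1.31, limma adjusted p = 0.999) and -0.11 (-0.84 to 0.61, adjusted p = 0.944). The RBPJ libraries thus lay on opposite sides of the control mean of 33.2 ± 7.33 (n = 8), and their difference of -0.70 did not pass (adjusted p = 0.838).

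NRARP (ENSG00000198435), a small ankyrin-repeat protein that feeds back on the Notch nuclear complex, ran from 24.2 (plko 2) through a median of 41.7 to 60.5 (shLACZ 1) in the controls. Its values of 47.0 in RBPJ 1 and 49.8 in RBPJ 2 lay within those limits and above the control mean of 41.4 ± 12.4 (n = 8). The log2 difference in RBPJ 2, the library with little RBPJ transcript, was 0.32 (95% interval -0.51 to 1.15, limma adjusted p = 0.843). The 3 target genes therefore did not share a direction in RBPJ 2. HES1 lay just below the control range there, and HES4 and NRARP lay inside it. The 95% interval of each difference included no change.

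The receptor NOTCH3 (ENSG00000074181) ran from 253 (shLACZ 1) through a median of 332 to 369 (shRFP 1) in the controls. It was at 271 in RBPJ 1 and 204 in RBPJ 2. RBPJ 2 lay below every control, RBPJ 1 did not, and the only lower value of the 16 libraries was 197 in NFIB 1. The log2 difference in RBPJ 2 was -0.62 (95% interval -1.16 to -0.08, limma adjusted p = 0.394), and that of both RBPJ libraries -0.41 (adjusted p = 0.912).

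The ligand JAG2 (ENSG00000184916) ran from 17.6 (plko 1) through a median of 25.4 to 32.7 (shLUC 2) in the controls. It was at 22.1 in RBPJ 1 and 26.6 in RBPJ 2, both inside that range, with a group log2 difference of -0.02 (95% interval -0.63 to 0.58, limma adjusted p = 0.998). Values beyond the controls were seen in KLF5 1 (40.5) and NFIB 2 (12.2), while the other library of each of those groups lay inside the range.

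APH1A (ENSG00000117362), a structural subunit of gamma-secretase, was the 1 member for which both RBPJ libraries lay above all controls, where 2.43% of tested genes did so. No member lay below in both (background 2.03%), so 1 of 10 lay outside on either side (background 4.46%). APH1A was at 174 in RBPJ 1 and 165 in RBPJ 2. The controls ran from 48.5 (plko 1) through a median of 81.9 to 161 (shLACZ 2), with a mean of 89.7 ± 33.2 (n = 8). The log2 difference was 0.99 (SE 0.28, 95% interval 0.40 to 1.57, limma adjusted p = 0.406) and did not pass. Over the alternatives it ran from 0.82 to 1.12, at adjusted p of 0.158 (DESeq2) to 0.999 (without RBPJ 2). APH1A was also at 165 in NFIB 2 and at 122 in NFIB 1. The 3 libraries with the highest APH1A signal, RBPJ 1, RBPJ 2 and NFIB 2, were also the 3 deepest, and the shallowest, plko 1, had the lowest. Other libraries did not follow that order. APH1A was at 161 in shLACZ 2 (784235 reads) and 97.6 in FOXA1 2 (537502). It was at 89.5 and 73.1 in the deeper shLUC 1 (1264671) and plko 2 (1256160). The part of depth in this difference was not tested.

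Of the nuclear partners, the coactivator MAML2 (ENSG00000184384) ran from 7.50 (shLACZ 2) through a median of 13.0 to 37.5 (plko 1) in the controls and was at 10.7 in RBPJ 1 and 14.7 in RBPJ 2. Both lay inside the control range. Its lowest value was 4.10 in NFIB 1, from 6 reads, and MAML2 had the widest interval of the 10 genes in RBPJ 2 (-1.22 to 1.33 on the log2 scale), with values that spread widely among the controls (mean 15.9 ± 9.68, n = 8).

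SNW1 (ENSG00000100603), a spliceosome protein that also binds the Notch nuclear complex, ran from 51.8 (shRFP 1) through a median of 59.1 to 73.2 (shLACZ 1) in the controls. It was at 54.5 in RBPJ 1 and 79.2 in RBPJ 2, the highest of the 16 libraries. The log2 difference of 0.42 in RBPJ 2 did not pass (SE 0.28, limma adjusted p = 0.673). NUMB (ENSG00000133961) ran from 50.7 (shLACZ 1) through a median of 67.1 to 85.5 (plko 2) in the controls. It was at 68.1 in RBPJ 1 and 49.3 in RBPJ 2, the latter just under the control range, with a log2 difference of -0.44 (SE 0.33, limma adjusted p = 0.713). Its lowest value was 35.4 in NFIB 2, where NFIB 1 was at 71.1, so the NFIB libraries did not share a direction.

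**Figure D2:**
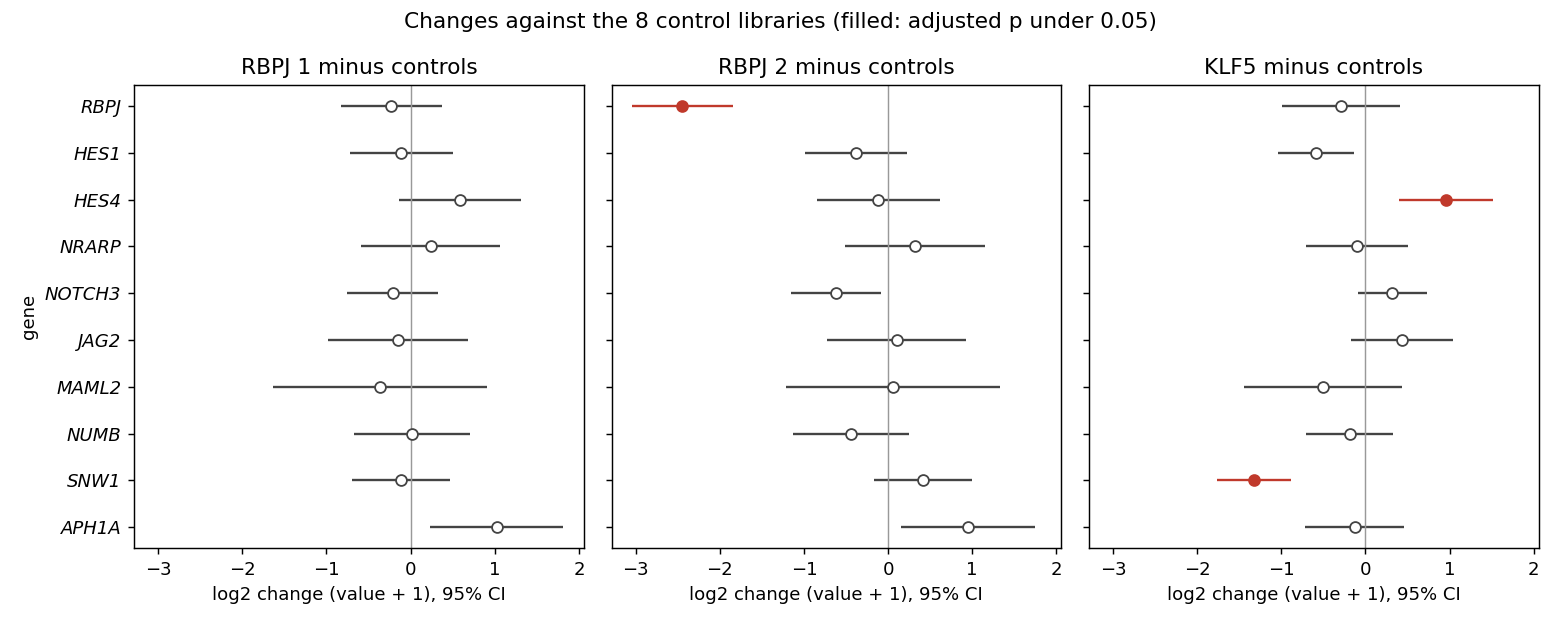
Log2 change on the value + 1 scale (horizontal axis, with 95% limma intervals) of each of the 10 genes in RBPJ 1, in RBPJ 2 and in the KLF5 group against the 8 control libraries, filled where the adjusted p was under 0.05. The RBPJ transcript stands at -2.44 in RBPJ 2 with every other gene unfilled, and in the KLF5 group SNW1 at -1.32 and HES4 at 0.96 are filled.

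With hairpins against KLF5, a zinc-finger factor of epithelial cells, SNW1 fell and HES4 rose, the only 2 of the 10 genes to pass (limma), where 5.37% of all tested genes passed (3.07% lower and 2.3% higher). SNW1 was at 20.6 in KLF5 1 and 25.7 in KLF5 2, which is 34.6% and 43.1% of the control mean of 59.5 ± 7.43 (n = 8). Both libraries lay below the 14 others. The log2 difference for SNW1 was -1.32 (SE 0.21, adjusted p = 0.00112 by limma). It was at 52.9 and 52.0 in plko, and with plko as the only control the fall was by 1.16 (adjusted p 0.0173), and without plko by 1.38 (adjusted p 0.000143). Without KLF5 1 the log2 difference was -1.17 and did not pass (adjusted p 0.0575).

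HES4 was at 71.8 in KLF5 1 and 57.2 in KLF5 2, above the 14 other libraries. HES4 rose by a log2 of 0.96 (SE 0.27, adjusted p = 0.0358 by limma), and by 0.90 without plko (adjusted p 0.0275). With plko as the only control, where HES4 was at 24.3 and 33.5, the log2 difference was 1.14 and did not pass (adjusted p 0.0545). The call was also lost without KLF5 1 (0.80, adjusted p 0.373), KLF5 2 (1.12, adjusted p 0.154) or shRFP 2 (0.97, adjusted p 0.0515).

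The KLF5 group was also set against the mean of the RBPJ, NFIB and FOXA1 groups, a comparison without control libraries that was chosen after SNW1 and HES4 were seen. SNW1 (log2 -1.38, SE 0.22, limma adjusted p = 0.000806) and HES4 (1.01, SE 0.28, adjusted p = 0.0303) again passed, with 6.61% of all genes passing (3.87% lower and 2.74% higher). NOTCH3, at 422 and 363 with the KLF5 hairpins, had a log2 difference of 0.67 (adjusted p 0.0514). Against the controls NOTCH3 was at 0.32 with KLF5 (limma adjusted p 0.395), -0.41 with RBPJ and -0.41 with NFIB. The HES4 call was lost without KLF5 1, KLF5 2, RBPJ 2, NFIB 1 or FOXA1 1, at adjusted p of 0.0524 to 0.328.

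A further pair of members had both KLF5 libraries below all controls, HES1 and RBPJ, so that 3 lay below with SNW1 and 1, HES4, above, where 6.96% of tested genes lay below and 9.31% above. HES1, at 56.4% and 74.3% of the control mean, had a log2 difference of -0.59 (limma adjusted p = 0.124). Without plko, whose libraries were at 505 and 237, the HES1 difference was -0.52 and passed (adjusted p 0.0431). RBPJ had a log2 difference of -0.29 (adjusted p = 0.695). HES1 and HES4 thus lay on opposite sides of the controls with the KLF5 hairpins. The fibroblast markers in the table, COL1A1, COL1A2, DCN and PDGFRA (4 of 7 listed), summed to 35.5 and 43.2 with the KLF5 hairpins and to 8.38 to 25.8 in the controls. They were as high in the NFIB libraries, at 38.3 and 40.1. COL1A1 made up 27.0 and 29.2 of the KLF5 sums, and COL3A1, LUM and PDGFRB had no row. The part of these markers, and of the KRT8 difference, in the KLF5 results was not tested.

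With hairpins against NFIB, a nuclear factor I protein, and against FOXA1, a pioneer factor of luminal cells, 0 of the 10 genes passed (limma), with 1 (APH1A) and 0 at an unadjusted p under 0.05 and 0 by edgeR and by DESeq2. In each comparison 0.00924% of all genes passed. At an unadjusted limma p under 0.05 there were 721 of 10826 genes with NFIB and 552 with FOXA1. No member had both NFIB libraries outside the control range (background 6.12%, with 3.28% above and 2.85% below) or both FOXA1 libraries outside it (5.07%, with 2.31% above and 2.76% below). The widest differences with NFIB were -0.90 for MAML2 and 0.73 for APH1A (adjusted p 0.749 and 0.675). The log2 differences with FOXA1 ran from -0.40 (NRARP, at 32.9 and 27.0) to 0.12 (APH1A, at 88.2 and 97.6). All 4 target comparisons share the same 8 control libraries.

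The wider pathway was described with a list of 69 genes, of which 59 were in the table and 58 were tested. The ligands DLL1, DLL3 and DLL4, the receptor NOTCH4, the sugar-modifying enzymes LFNG and MFNG, the ligase DTX1 and the targets HES7, HEY1 and HEYL had no row. With both RBPJ libraries as 1 group 0 of the 58 passed (limma), and 5 were at an unadjusted p under 0.05, where 593 of 10826 genes were. The median log2 difference was 0.06, against 0.05 over all genes. This group joins RBPJ 1, where the RBPJ transcript was inside the control range, with RBPJ 2. In RBPJ 2 alone the 58 log2 differences ran from -2.44 (RBPJ) to 2.87 (HES5), with a median of 0.01 against 0.06 over all genes. In RBPJ 1 alone they ran from -0.76 to 1.08, with a median of 0.16 against 0.06. The genes named next were picked in the joined group. The higher genes of smallest p were APH1A, CTBP1, a corepressor (77.6 and 100 against 55.5 ± 13.3, n = 8), and HES5. The lower ones were RBPJ, DTX4, a Deltex-family ubiquitin ligase (11.9 and 12.8 against 21.1 ± 2.94, n = 8), and NOTCH3. CTBP1 had a log2 difference of 0.70 (adjusted p 0.688) and DTX4 of -0.71 (adjusted p 0.804). CTBP1 was also above all controls in both NFIB libraries (77.9 and 77.2). DTX4 was as low with the KLF5 hairpins (12.8 and 10.5) and in NFIB 1 (10.9), and at 26.2 in NFIB 2.

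Among the target genes outside the 10, the low-signal HES5 and HEY2 differed most between the RBPJ libraries. HES5, a repressor of the HES1 family, was at 2.98 in RBPJ 1 and 26.1 in RBPJ 2, from 55 reads, and between 0 and 7.48 in the controls. RBPJ 2 was the highest of the 16 libraries, followed by NFIB 2 at 13.5. The log2 difference in RBPJ 2 was 2.87 (SE 0.97, limma adjusted p = 0.203), and it passed with a pseudocount of 4 (2.06, adjusted p 0.0418) and with edgeR (2.63, adjusted p 0.00877). HEY2, a hairy-related repressor, was at 16.4 in RBPJ 1 and 1.42 in RBPJ 2, from 3 reads, with controls from 3.59 to 19.9. Its log2 difference in RBPJ 2 was -2.13 (SE 0.66, adjusted p 0.141). HEY2 in RBPJ 2 rests on so few reads that its 95% counting interval ran from 0.29 to 4.16. HEY2 was named after its values were seen.

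With the KLF5 hairpins 5 of the 58 passed (limma), 3 higher and 2 lower, where 2.3% of all genes passed as higher and 3.07% as lower, and the list median was 0.14, against 0.05 over all genes. Beside HES4 the higher genes were DTX3, a Deltex-family protein (47.6 and 33.8 against 16.1 ± 4.43, n = 8), and HDAC2, a histone deacetylase of corepressor complexes (350 and 385 against 214 ± 50.6). SNW1 was on the lower side. DTX3 rose by a log2 of 1.32 (adjusted p 0.0354) and HDAC2 by 0.81 (0.0252). With plko as the only control DTX3 passed (1.75, adjusted p 0.0302), and HDAC2 (0.34, 0.378) did not. Without plko both passed (DTX3 1.17, adjusted p 0.0281, and HDAC2 0.97, 0.000406), and the count was 10 of 58, 7 higher and 3 lower, where 12% of all genes passed (4.9% higher and 7.11% lower). The higher genes added were EP300, a coactivator acetyltransferase (0.80), POFUT1, which adds fucose to the receptors (0.68), the receptor NOTCH1 (0.98) and MIB2, a ligase for Notch ligands (1.14), and HES1 was added to the lower ones. Without KLF5 1 or without KLF5 2 neither DTX3 nor HDAC2 passed, at adjusted p of 0.148 (DTX3 without KLF5 2) to 0.385 (DTX3 without KLF5 1). The DTX3 call was also lost without shRFP 1 or shRFP 2 (0.0553 and 0.0565). Set against the other targets, HDAC2 (0.76, adjusted p 0.0366) and MIB2 (1.54, 0.0177, at 34.8 and 33.8) passed. Both calls were lost without KLF5 1 (adjusted p 0.185 for MIB2 and 0.204 for HDAC2) or KLF5 2 (0.144 for MIB2 and 0.275 for HDAC2), and that of HDAC2 also without RBPJ 2, NFIB 1, FOXA1 1 or FOXA1 2 (0.0596 to 0.0709).

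With the NFIB and FOXA1 hairpins 0 of the 58 passed in either comparison (limma), with 5 and 4 at an unadjusted p under 0.05. Over all 10826 tested genes 721 and 552 were. The 7 tested target genes of the list had a median log2 difference of -0.27 with the FOXA1 hairpins (from -0.46 to -0.08), against 0.004 over all genes, and none passed. In FOXA1 2 HES5 rested on 1 read and HEY2 on 3. HES5 was at 3.95 in FOXA1 1, above its control mean of 3.65, and HES2 was at 119 there, near its control mean of 120.

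**Figure D3:**
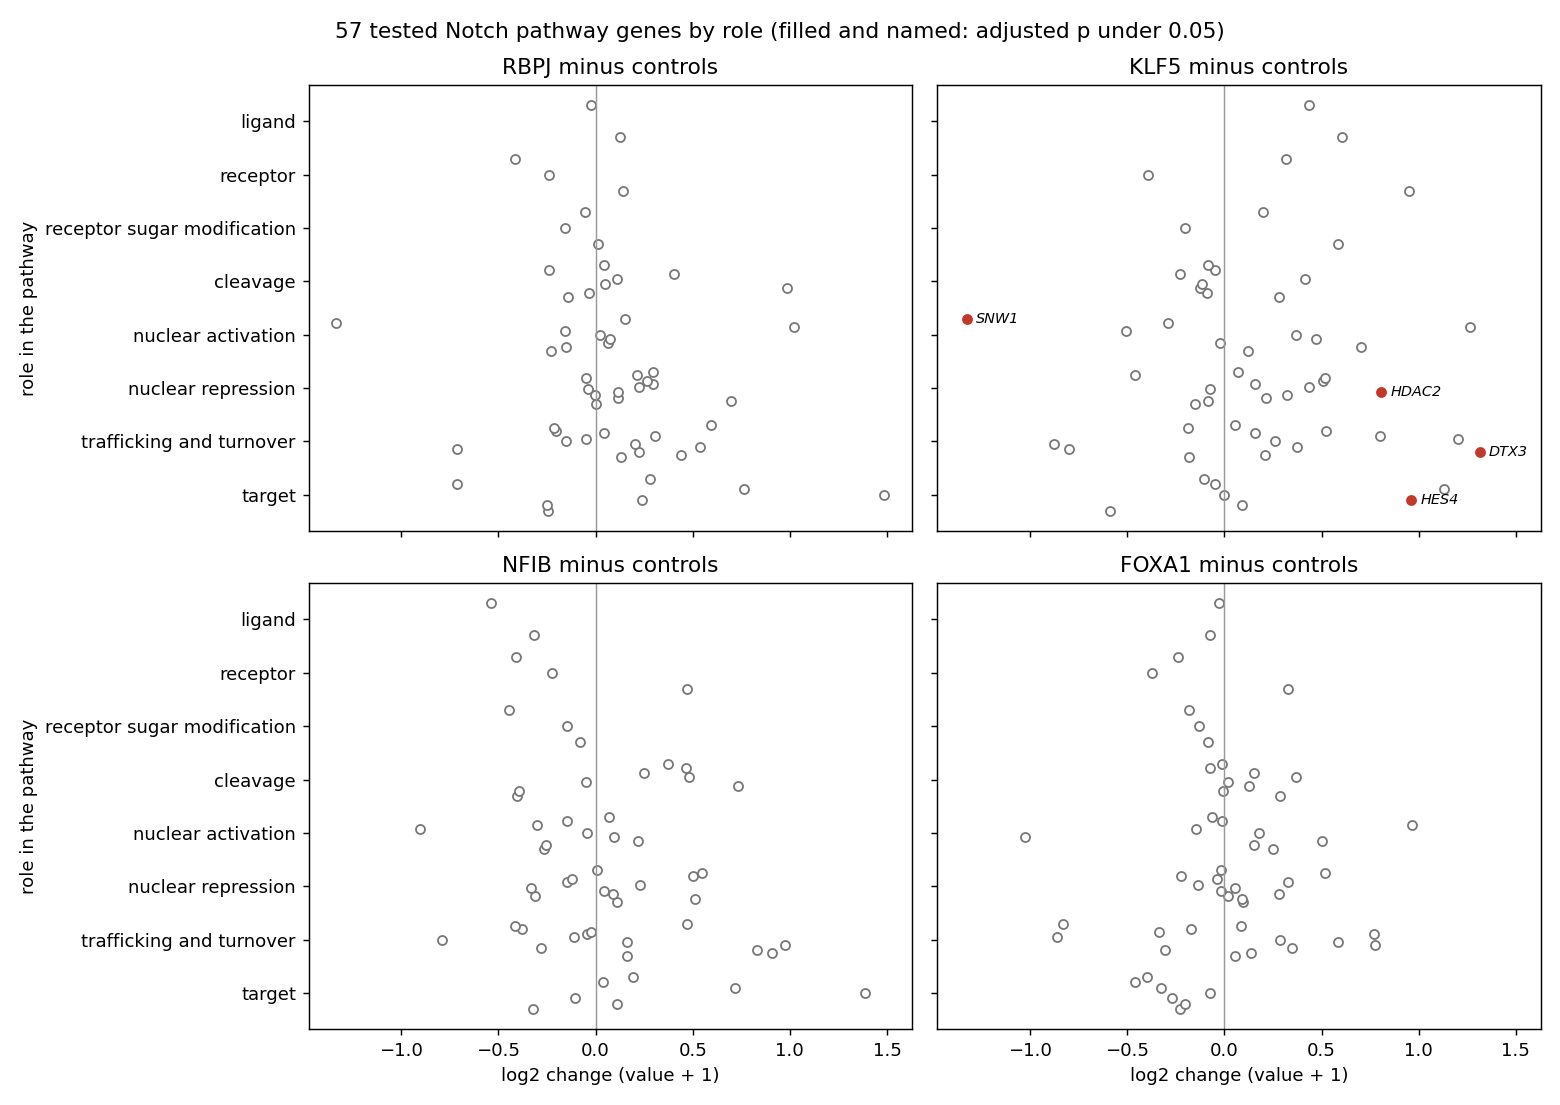
Log2 change on the value + 1 scale (horizontal axes) of 57 tested pathway genes, in rows by role, for each target against the 8 control libraries, filled and named where the adjusted p was under 0.05. The RBPJ panel takes both RBPJ libraries as 1 group. Filled points occur in the KLF5 comparison alone, with SNW1 on the lower side and HDAC2, DTX3 and HES4 on the higher side.

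The plko libraries were also compared with the other controls. Of the 10 genes 0 differed between plko and the other 6 control libraries by limma, and 0 by edgeR and by DESeq2. By limma 7.5% of all genes passed (5.63% lower and 1.88% higher). At an unadjusted limma p under 0.05 there were 2489 of the 10826 tested genes, and 2 of the 10. Those 2 were MAML2 (37.5 and 17.3 in plko against 12.1 ± 4.47, n = 6, adjusted p 0.101) and APH1A (48.5 and 73.1 against 99.4 ± 32.2, adjusted p 0.0952). In the list 6 of 58 passed. KAT2A, an acetyltransferase (log2 -1.60), HES6 (-1.91), the gamma-secretase subunits NCSTN (-0.88) and PSENEN (-0.61) and AAK1, a kinase that acts on NUMB (-0.77), were lower, and HDAC2 (0.63) was higher, at adjusted p of 0.0078 to 0.0486. In plko 1 HES6 was at 0, and the limit of 3 reads that a count of 0 allows is 6.62 in that library. Without plko 1 none of the 6 passed, at adjusted p of 0.177 (KAT2A) to 0.826 (HES6), and by edgeR HDAC2 alone of the 6 passed.

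The genes most like RBPJ across the 16 libraries, by Pearson correlation of log2 values among 10825 genes, were NCOA7 (0.94), LBR (0.92) and TGOLN2 (0.88). Their Spearman correlations were 0.62, 0.43 and 0.28. NCOA7, a nuclear receptor coactivator family member, was at 40.3 in RBPJ 2 and at 135 in the next lowest library. LBR, the lamin B receptor, was at 20.9 in RBPJ 2 and at 56.0 in the next lowest, and TGOLN2, a trans-Golgi protein, at 49.3 and 100.5. Without RBPJ 2 the Pearson values were 0.58, 0.50 and 0.26, so the likeness rests on that library. For the other members the single most alike genes were VAPA for HES1 (0.86), HUS1 for HES4 (0.84), TRPT1 for NRARP (0.81), TMEM65 for NOTCH3 (0.86) and ATL2 for JAG2 (0.90). They were ATE1 for MAML2 (0.84), BCL2L2 for NUMB (0.89), COX14 for SNW1 (0.94) and SCNM1 for APH1A (0.87). Spearman correlations of these pairs ran from 0.65 (COX14) to 0.86 (SCNM1). Without the lowest library of each member the Pearson values ran from 0.76 (TRPT1) to 0.89 (COX14). COX14, like SNW1, was lowest in KLF5 1 (15.6), with 16.3 in the next lowest library. These correlations share library depth and normalization between the genes and carry no test.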

How the data were processed

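RNA of infected HCC70 cells was measured in 16 libraries made from barcoded 3′ cDNA by a CEL-Seq-based protocol, per the labels. The authors deposited a single table of normalized signal, named as DESeq2-normalized in its file name. The submitters' processing notes name GRCh37 as the build. For the aligner, the counting tool, strand and molecular identifiers, nothing is given in the sources used here, so reads from overlapping genes cannot be told apart. Dividing the deposited signal of each library by its smallest step recovered whole reads for 100% of values (tolerance 0.05 of a read). The 2 columns that match no sample described here were not used. Symbols were found for 11259 of 11282 identifiers.

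Contrasts were fitted with limma 3.58.1 in R 4.3.3, with a mean-variance trend, on log2(value + 1) over all 16 libraries, for the 10826 genes that reached 5 in 2 or more libraries (456 did not). The threshold was an adjusted p (Benjamini-Hochberg, over all these genes) under 0.05, 2-sided. The factor had 5 levels (controls and each target), RBPJ 1 and RBPJ 2 were separate levels where tested alone, and plko was separate where compared with the other controls. edgeR 4.0.16 called 0, 632, 0 and 1 genes on the recovered reads for RBPJ, KLF5, NFIB and FOXA1, and DESeq2 1.42.0 called 17, 780, 11 and 3, where limma called 3, 581, 1 and 1. The script was tested on simulated counts. Alternatives were other pseudocounts (0.25 and 4), no filter, equal column sums, a replicate block, other controls, both count tests and each library left out. Promoter windows came from the RefSeq tables of GRCh38.

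The 10 genes and the pathway list were chosen with earlier results of these data known. All 10 are named, with each list gene that passed (except 1, which is not reported here), the 3 list genes of smallest p in each direction for RBPJ, and the genes most correlated with each member. Library numbers 1 and 2 were not treated as pairs in the main fits. Deviations of same-numbered libraries correlated at -0.20 to 0.22 over 28 pairs of constructs, with 3 over 0.1. Depth and constructs also differ between libraries, so weak correlations cannot exclude a pairing.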

Additional observations from a re-analysis of the deposited data

Results flagged for a closer look

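Among the 8 control libraries, plko 1 held the highest value for 3 of the 10 genes, at a gap to the next library that is large for the range. HES1 was at 505.2 in plko 1 and at 307 in the next highest control. From 229 reads, its 95% counting interval of 442 to 575 did not reach that library's value. MAML2 was at 37.5 in plko 1, from 17 reads, against 19.7 in the next, which its counting interval of 21.8 to 60.1 does not hold. RBPJ was at 68.4 in plko 1, from 31 reads, against 54.9 in the next, which lies inside its counting interval of 46.5 to 97.1. Chance flags about 1 in 20 such groups. The plko 1 library is the shallowest of the 16, and the part of its depth in these values was not tested.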

How the results depend on the processing

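The number of the 10 genes past the threshold stayed at 0 for NFIB, FOXA1 and RBPJ 1 and at 1 for RBPJ 2 under every alternative run. In fits that left out 1 library the count ran from 0 to 1 for RBPJ (1 without RBPJ 1), 0 to 2 for KLF5 (0 without KLF5 1, 1 without KLF5 2 or shRFP 2), 0 to 1 for RBPJ 2 against RBPJ 1, 0 to 2 for plko (2 without plko 2: HES1 at log2 0.83, adjusted p 0.0189, and MAML2 at 1.62, 0.0452) and 1 to 3 for KLF5 against the other targets. The KLF5 count was 1 with plko as the only control and 3 without plko. KLF5 against the other targets gave 4 without the plko libraries, where NOTCH3 (0.67, adjusted p 0.0247) and APH1A (-0.74, 0.0438) passed too. Against all 8 controls neither passed with KLF5 (0.32 for NOTCH3 and -0.13 for APH1A, limma adjusted p 0.395 and 0.856). APH1A was at 0.99 with RBPJ and 0.73 with NFIB there, so its difference from the other targets lay largely in those groups. With the replicate block RBPJ 2 against RBPJ 1 gave 0, and the block changed no other count of the 10 genes. The permutation p for RBPJ ran from 0.0556 to 0.444 with 1 library left out. Of single-gene values under an alternative, 2092 kept their side of the threshold, 17 lost and 11 gained a call, and none of those with a call changed sign. Over all genes the count of calls without plko was 6 for RBPJ, 1301 for KLF5, 2 for FOXA1, 6 for RBPJ 1, 235 for RBPJ 2, 181 for RBPJ 2 against RBPJ 1 and 1280 for KLF5 against the other targets. By DESeq2 it was 251 for RBPJ 2 and 485 for plko (382 by edgeR), and for KLF5 it was 372 with plko as the only control. With 1 library left out it was 142 for RBPJ without RBPJ 1 and 0 without RBPJ 2, 78 and 99 for KLF5 without KLF5 1 and 2 (101 and 186 against the other targets), 26 for FOXA1 without FOXA1 1 and 131 for plko without plko 1. For RBPJ 2 against RBPJ 1 it was 10 with a pseudocount of 4, 16 with equal sums, 0 with the replicate block, 58 by edgeR and 98 by DESeq2, against 4. Equal column sums moved the median log2 over all genes to 0.14 for RBPJ 1 and to -0.13 for RBPJ 2 against RBPJ 1. Precision is lowest for MAML2 and JAG2, with as few as 6 and 8 reads in a library. Counting intervals cover counting error only.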
